A study of Mus musculus with 30 samples.

Results

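Mouse lung after 2 d in 10% oxygen was compared with lung of the group titled Norm. The comparison uses 11 of the 30 arrays of the series, chosen by their titles, 6 of them titled for 2 d and 5 titled Norm. The 2 d group held total RNA from whole lungs of mice kept for 2 d in a chamber at 10% oxygen, a procedure that the labels name as a means to induce pulmonary hypertension. The Norm group also held total RNA from whole lungs. Its titles leave the word unexplained. The description of these samples mentions a rejection, which fits no title, and the titles were followed. The other groups of the series were lungs after 10 h, 4 d and 6 d at the same oxygen level. Strain, sex and age of the mice were not given in the sources used here. There were 2 samples in a group (1a and 1b). Each sample was hybridised to 3 types of Affymetrix oligonucleotide array, called A, B and C, which carry different probe sets. A probe set is a group of short probes against the same transcript, and a gene can have several of them, on the same array type or on different ones. Whether 1a and 1b were different animals is not in the labels, so the p-values reflect how far these samples differed, possibly for technical reasons alone.

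When the lung meets low oxygen, its small arteries constrict, and over days to weeks their walls thicken as smooth muscle cells, fibroblasts and the matrix of elastin and collagens increase. Inside cells, hypoxia-inducible factors accumulate and switch on genes of glycolysis, vessel growth and red cell supply. The whole lung also holds conducting airways lined by club cells and by ciliated cells with motile cilia, alveoli lined by type 1 and type 2 cells, blood, and, in mice, sleeves of heart muscle around the pulmonary veins. In bulk tissue, fewer cells of a type and less RNA per cell cannot be told apart.

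The values were probe set intensities, which lay on a common scale as deposited (trimmed means of 800.2 to 800.4 on every array used). Changes are log2 differences, 2 d minus Norm, each given with its standard error from the fit. A floor was placed at the 40th percentile of each type, 236.05 for A, 297.36 for B and 200.93 for C arrays, lower intensities were raised to it, and a group with all arrays at the floor gives only a bound. The Norm array 1a titled for type A was deposited among the B arrays and correlated with the 10 others there at -0.00277 to 0.00963 (Spearman), so it was left out and the A arrays held 1 Norm array, 1b. That array correlated better with arrays of another label. In genes measured on more than 1 array type, its deviations from the mean of all arrays correlated at 0.33 and 0.27 with the 4 d B arrays 1a and 1b and at 0.04 with the Norm 1b B array (Pearson, 205 genes), and at 0.26 and 0.16 with the 4 d C arrays and 0.14 with the Norm 1b C array (256 genes). It is therefore called the A array labelled Norm 1b, and values that rest on it are marked so. Own-label correlations were low for some other arrays too. The 4 d 1a A array correlated at -0.02 and 0.05 with the 4 d B arrays. The Norm 1a B array correlated at 0.04 and -0.09 with the Norm C arrays and at 0.10 with the 6 d 1b C array, and the Norm 1b B array at 0.16 with the Norm 1b C array and at 0.22 with the 10 h 1a C array (314 genes), so the B and C Norm arrays were not shown to match either. The 2 d A arrays correlated at 0.27 to 0.34 with the 2 d B arrays over the same genes. The ratio of 3' to 5' signal on control probe sets, a measure of RNA integrity, was raised on the 2 d arrays. For Gapdh it was 3.64 to 4.60 on the 6 arrays of 2 d, 0.815 to 1.51 on the 5 Norm arrays and 0.786 to 1.68 on the 18 arrays of the other times. For beta-actin it was 3.64 to 4.98 at 2 d, 0.0453 to 0.926 in Norm and 0.0272 to 1.66 at the other times, while for 18S RNA, the transferrin receptor and pyruvate carboxylase the groups overlapped. In such RNA, probe sets placed at different distances from the 3' end of a transcript can differ in what they report. The part of RNA integrity in the results below was not tested. Changes were therefore weighed by whether all probe sets of a gene agreed. Lung markers were present but did not all move the same way. Sftpc, a surfactant protein of alveolar type 2 cells, read 36691 and 42808 at 2 d and 7199 on the A array labelled Norm 1b. Sftpb, another surfactant protein of these cells, read 9814 and 9349 at 2 d and 17146 on that array. Scgb1a1, the secretoglobin of club cells, read 38291 and 45063 at 2 d and 12923 on that array. Pecam1, an endothelial adhesion molecule, read 204 (below the floor) and 755 at 2 d and 359 on the A array labelled Norm 1b. Cdh5, an endothelial cadherin, read 12887 and 13094 at 2 d and 14308 on that array. Sftpb and Cdh5 were named after their values were seen. The liver marker Alb and the macrophage marker Marco were below the floor on all of these arrays. The brightest intensity of an A array was 40213 and 45948 at 2 d and 23383 on the A array labelled Norm 1b.

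Of 25801 probe sets tested, 480 passed an adjusted p of 0.05 (1.86%). Of these, 200 were higher at 2 d (0.775%) and 280 were lower (1.09%). At an unadjusted p under 0.05 there were 4864. By type, 0.918% of A, 2.85% of B and 1.79% of C probe sets passed. In terms of genes, 134 of 13029 had a probe set that rose (1.03%) and 222 had a probe set that fell (1.7%). A gene was called agreeing when it had at least 2 tested probe sets, all of them moved in the same direction by at least 0.5 on the log2 scale, and at least 1 passed. Among the 5147 genes with several tested probe sets, 8 agreed on a higher level at 2 d (0.155%) and 23 on a lower level (0.447%). Another 225 genes with several probe sets had at least 1 that passed and did not agree: in 113 the probe sets pointed in opposite directions, in 107 they pointed the same way but some by less than the minimum, and in 5 another probe set was at the floor in both groups. Probe sets of the same gene pointed the same way in 53.9% of the 256 genes with several probe sets and a pass, against 43.1% of all 5147 genes with several probe sets. These shares are not of like sets. A gene with a probe set unchanged at the floor counts as not pointing the same way, and genes with a pass were selected for a change. The members just inside the minimum were Gucy1b1, with a smallest change of -0.50, Lockd (0.51) and Ntm (0.58), and those just outside were Ddx46 (-0.49), Tmem250-ps (0.48) and Colec12 (-0.48).

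The set of 31 agreeing genes changed with the samples used. Without sample 2 d 1a, 3 genes agreed, 1 of them among the 31. Without 2 d 1b, 3 genes agreed, 2 of them among the 31. Leaving out a 10 h sample gave 13 or 14 agreeing genes, and leaving out a 6 d sample gave 9. Without Norm 1b 30 agreed, 2 of them among the 31. There were 7 of the 31 genes that were measured on A alone. Of the other 24, 20 had a B or C probe set that passed when the B and C arrays were analysed alone. Socs3, Ctsc, Gucy1b1 and Klf9 did not (adjusted p = 0.092, 0.0712, 0.266 and 0.0722). The array types were fitted apart, so this setting changed only the adjustment and is no second check of these genes. Under the alternatives that kept the agreement rule as it was, agreement was lost least often for Ogn (kept in 17 of 18). It was also lost rarely for Spag6l and Fnip1 (17 of 20 each), Nr1d2 and Lyve1 (16 of 18 each) and Cpm and Lockd (16 of 20 each). It was lost most often for Gucy1b1 (kept in 2 of 18), Cyth3 (4 of 16) and Adam15 and Ctsc (5 of 18 each). Eln kept it in 7 of 18 and Cdhr4 in 7 of 20. Alternatives that left a gene fewer than 2 tested probe sets were not counted. For Ogn, Nr1d2, Lyve1 and Eln these were the B and C arrays alone and leaving out Norm 1b. Both take out the A array labelled Norm 1b. Some counted alternatives could change only the adjustment. These were adjustment within an array type for all genes, leaving out Norm 1a for A probe sets, and the B and C arrays alone for B and C probe sets. The counts are therefore not a like measure for genes on different array types.

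**Figure D1:**
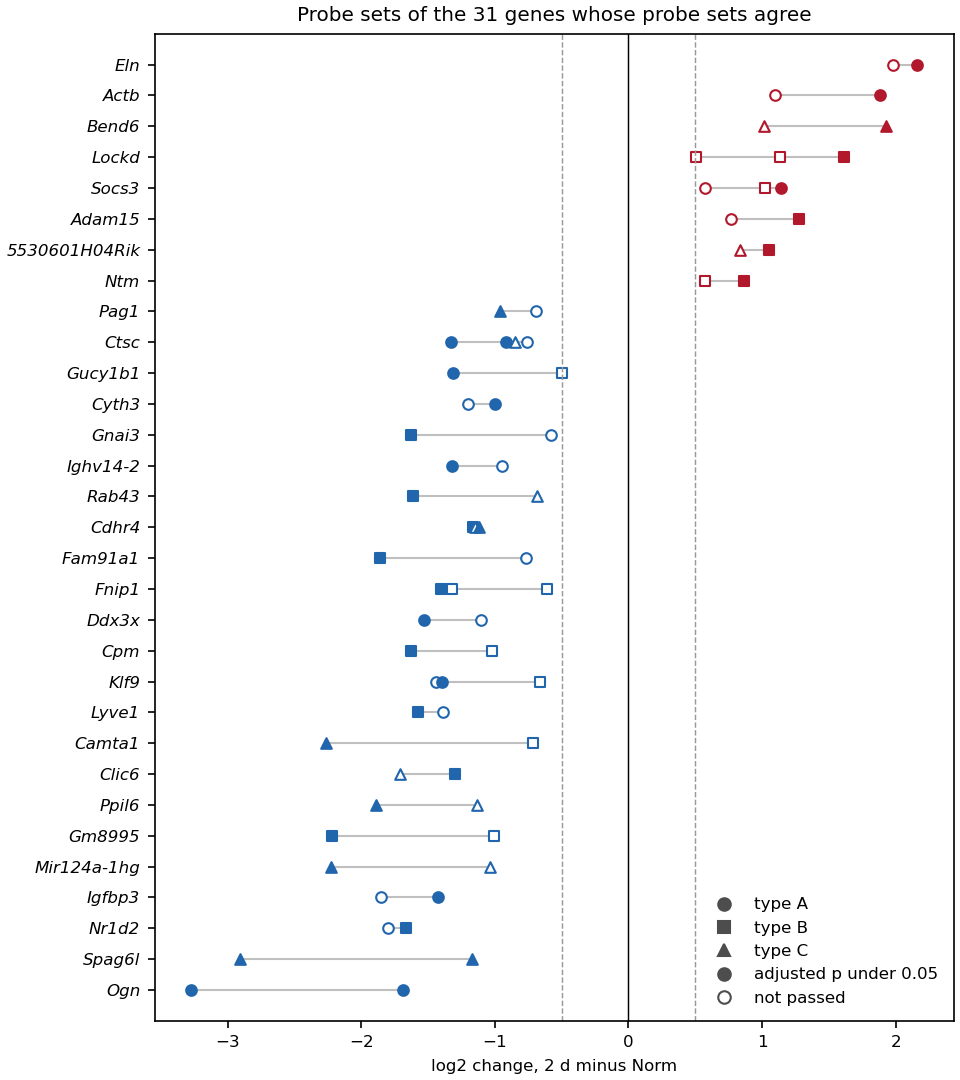
Log2 change of every tested probe set of the 31 agreeing genes, 2 d minus Norm, with a marker shape for each array type. Filled markers passed an adjusted p of 0.05, dashed lines mark the minimum change of 0.5, and 8 genes lie to the right and 23 to the left.

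Among genes of the extracellular matrix and the vessel wall, the precursor of elastic fibres rose and a leucine-rich proteoglycan fell. Eln, which encodes elastin, read 26096 and 33877 at 2 d, against 6639 on the A array labelled Norm 1b. This probe set rose by 2.16 ± 0.39 on the log2 scale, or 4.48-fold (adjusted p = 0.0397). The other Eln probe set read 1235 and 1398 at 2 d, against 333 on the A array labelled Norm 1b (1.98 ± 0.73, adjusted p = 0.191). Both 2 d arrays lay above that Norm array on both probe sets. How many of all tested probe sets separate 2 d from Norm was not counted. With so few arrays, separation of the groups says little alone, here and for the genes below. Ogn, which encodes osteoglycin, a small proteoglycan of collagen-rich tissue, read 405 and 607 at 2 d, against 4791 on the A array labelled Norm 1b. It fell by 3.27 ± 0.34 on the log2 scale, or 9.67-fold (adjusted p = 0.0118), and its other probe set, at 1655 and 1711 at 2 d and 5409 on that Norm array, fell by 1.68 ± 0.28 (adjusted p = 0.0305). Ogn and Eln were measured on the A arrays alone.

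Adam15, a membrane-bound metalloproteinase of the disintegrin family, read 994 and 1333 at 2 d, against 489 and 462 in Norm, on the B arrays. The groups did not overlap, and the probe set rose by 1.28 ± 0.25 (adjusted p = 0.0442), while the A probe set stood at 0.77 ± 0.43. Igfbp3, a carrier of insulin-like growth factors that also acts on vessels, fell on A by 1.42 ± 0.20 or more (adjusted p = 0.0212), with 2 d at the floor (49.7 and 181) and 633 on the A array labelled Norm 1b. Lyve1, the hyaluronan receptor of lymphatic endothelium, fell on B, where it read 628 and 738 at 2 d, against 2254 and 1829 in Norm (-1.58 ± 0.20, adjusted p = 0.0203). Its A probe set read 776 and 798 at 2 d, against 2055 on the A array labelled Norm 1b (-1.39 ± 0.32, adjusted p = 0.0662). On both types every 2 d array lay below every Norm array.

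Of 19 tested genes of the elastic fibre, 13 had a median change above 0 and 6 below, with a median of 0.14. On B and C alone the median was 0.01, with 6 of 11 genes above 0 and 4 below. Eln and Mfap5 had a probe set that rose (10.5% of the list, against 1.03% of all genes). Mfap5, a microfibril protein that fibrillin fibres carry, rose by 1.07 ± 0.19 on 1 A probe set (adjusted p = 0.0361), but its other probe sets stood at 0.45 on A and at -0.40 and 0.05 on C. Mfap4, a further microfibril protein, read 3398 and 2423 at 2 d, against 384 on the A array labelled Norm 1b (2.90 ± 0.61, adjusted p = 0.0555). Of 22 collagen genes, 17 stood above 0 and 4 below, with a median of 0.53, the highest of the lists with 10 or more genes, and none had a probe set that passed. Col4a1, a chain of basement membrane collagen, read 20530 and 23837 at 2 d, against 9643 on the A array labelled Norm 1b (2.29-fold, adjusted p = 0.0827). Col1a1, a chain of fibrillar collagen, stood at 0.97 ± 0.30 and 0.99 ± 0.36 on its A probe sets. The collagen median rests on the A arrays. On B and C alone it was -0.14, with 4 of 9 genes above 0.

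**Figure D2:**
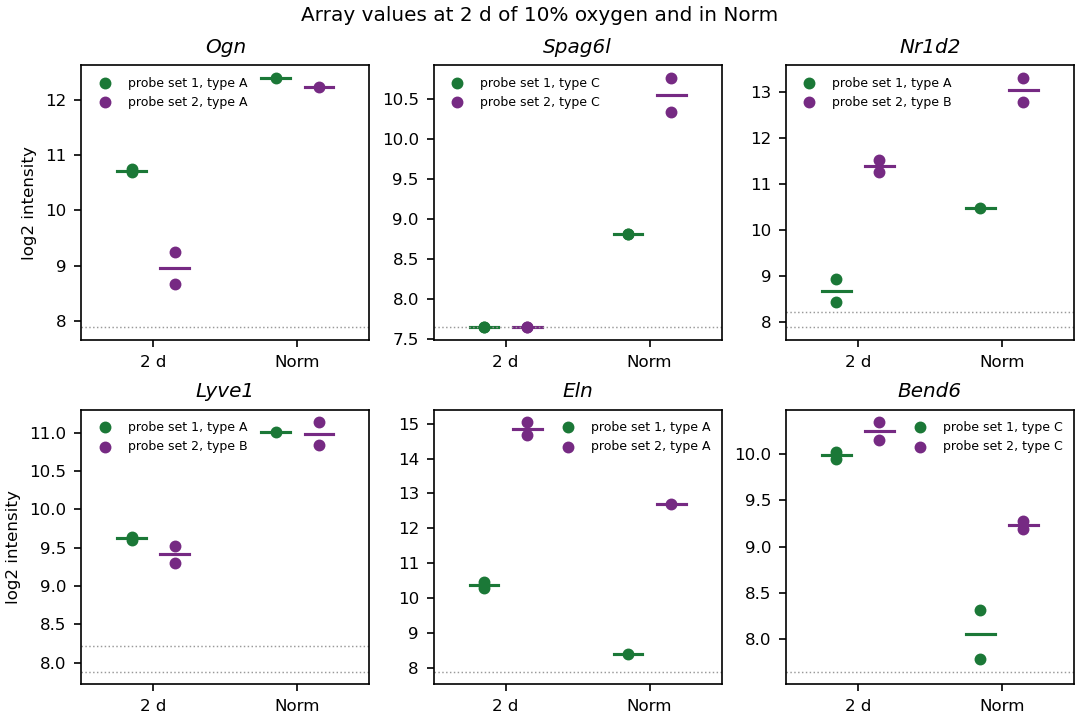
Log2 intensity of each array at 2 d (left) and in Norm (right) for both probe sets of Ogn, Spag6l, Nr1d2, Lyve1, Eln and Bend6, with group means as bars and the floor of the array type dotted. For each probe set shown, the 2 d arrays do not overlap with the Norm arrays, and the A probe sets have 1 Norm array. The share of all tested probe sets without overlap was not counted.

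Most genes of motile cilia stood lower at 2 d. These cilia beat by dynein motors on an axoneme with a central pair of microtubules, and clear mucus from the airways. Of 40 tested genes of the list, 31 had a median change below 0 and 8 above, with a median of -0.30. Spag6l, Cdhr4, Traf3ip1, Ak7, Cfap43 and Sec14l3 had a probe set that fell (15%, against 1.7% of all genes), and none had one that rose. On B and C alone, where 29 of the genes were measured, 24 stood below 0 and the median was -0.42. Spag6l, a protein of the central apparatus of the axoneme, was at the floor at 2 d, with readings of 144 and 120 at 2 d, against 1296 and 1748 in Norm. It fell by at least 7.49-fold (log2 change -2.91 ± 0.42, adjusted p = 0.0203). Its other probe set was also at the floor at 2 d, against 453 and 451 in Norm, and fell by at least 2.25-fold (adjusted p = 0.0496).

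Cdhr4, a cadherin-related protein, fell on 2 of its 3 probe sets, and the groups did not overlap on any. On B it read 1043 and 742 at 2 d, against 1965 and 1979 in Norm (-1.16 ± 0.24, adjusted p = 0.0498). On C, 1 probe set read 1503 and 1202 at 2 d, against 2601 and 3289 in Norm (-1.12 ± 0.23, adjusted p = 0.0458). The other read 2371 and 2102 at 2 d, against 4199 and 5850 in Norm (-1.15 ± 0.25, adjusted p = 0.0547). Cdhr4 had the narrowest range of changes between probe sets among the agreeing genes with 3 or more.

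Traf3ip1, a protein of intraflagellar transport, read 1530 and 1463 at 2 d, against 3235 and 3895 in Norm (-1.25 ± 0.17, adjusted p = 0.0203). Cfap43, a protein of the axoneme with 1 probe set, read 691 and 302 at 2 d, against 1858 and 2649 in Norm (-2.28 ± 0.42, adjusted p = 0.0361). Ak7, an adenylate kinase of cilia, disagreed between probe sets: 1 fell to 728 and 675 at 2 d, against 2098 and 2066 in Norm (-1.57 ± 0.29, adjusted p = 0.0347), and another read 1211 and 1245 at 2 d, against 1126 and 872 in Norm. Sec14l3, a lipid-binding protein of airway cells, fell by 1.01 ± 0.21 on 1 B probe set (adjusted p = 0.0474), while another stood at 1.11 ± 0.27 (adjusted p = 0.0688). Outside the list, Ppil6, a cyclophilin-like protein, was an agreeing gene that fell on C, with 220 and 126 at 2 d, against 707 and 856 in Norm (-1.89 ± 0.38, adjusted p = 0.0442). Its other probe set read 168 and 241 at 2 d, against 1159 and 152 in Norm, and there the groups overlapped.

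The list did not move as a block on every array type. The summed intensity of its 31 C probe sets was 29407 and 25891 at 2 d, against 40978 and 52416 in Norm. Over 16 A probe sets it was 56829 and 56763 at 2 d, against 36931 on the A array labelled Norm 1b. Over 12 B probe sets it was 29987 and 35595 at 2 d, against 27244 and 29638 in Norm. Foxj1, the transcription factor that drives the formation of motile cilia, named here as a marker after its values were seen, read 1029 and 1549 at 2 d and 1462 on the A array labelled Norm 1b.

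The promoters of the agreeing genes Spag6l, Cdhr4 and Ppil6 are shown because all their probe sets stood lower at 2 d and because genes of motile cilia are known to be switched on by regulatory factor X (RFX) proteins, which bind the X-box. Each window runs from 250 bases before to 50 after the start of the gene in RefSeq (build GRCm38.p6), in the direction of transcription: Spag6l at chr16:16829314-16829613 on the minus strand, Cdhr4 at chr9:107992207-107992506 on the plus strand and Ppil6 at chr10:41490189-41490488 on the plus strand. Capitals mark GTTGCC, a short core of the X-box, searched on both strands, where it reads GGCAAC on the other strand.
Spag6l: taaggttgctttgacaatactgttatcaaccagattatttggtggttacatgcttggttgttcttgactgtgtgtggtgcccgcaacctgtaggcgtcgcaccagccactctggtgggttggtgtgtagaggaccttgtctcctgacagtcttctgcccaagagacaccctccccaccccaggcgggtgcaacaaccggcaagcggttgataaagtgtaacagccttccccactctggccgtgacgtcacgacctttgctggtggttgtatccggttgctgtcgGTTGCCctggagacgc
Cdhr4: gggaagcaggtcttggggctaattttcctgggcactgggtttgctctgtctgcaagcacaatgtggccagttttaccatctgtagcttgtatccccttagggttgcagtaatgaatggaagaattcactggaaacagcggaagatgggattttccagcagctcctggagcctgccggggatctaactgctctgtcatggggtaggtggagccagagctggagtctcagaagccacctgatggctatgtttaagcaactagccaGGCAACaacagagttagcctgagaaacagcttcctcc
Ppil6: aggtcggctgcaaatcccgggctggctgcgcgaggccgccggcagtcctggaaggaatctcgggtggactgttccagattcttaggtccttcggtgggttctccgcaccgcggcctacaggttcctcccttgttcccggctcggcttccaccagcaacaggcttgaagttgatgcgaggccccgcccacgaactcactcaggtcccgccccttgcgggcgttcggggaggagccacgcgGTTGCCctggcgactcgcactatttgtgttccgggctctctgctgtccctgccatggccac
Each of the 3 windows held 1 match, which began 34 bases (Spag6l) and 13 bases (Cdhr4) after the start and 11 bases before it (Ppil6). Of all 32851 promoter windows of the table, 12.5% held the motif. Counted by gene, 14.1% of 27025 genes had it, against 21 of the 37 tested cilia genes with a window (56.8%). A match describes the letters of the window and is not evidence of binding.

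Regulators of daily rhythm and of hormone responses were among the agreeing genes that fell. Nr1d2 encodes REV-ERB beta, a nuclear receptor that represses genes in the circadian clock. On B it read 2458 and 2954 at 2 d, against 7128 and 10223 in Norm, and fell by 1.66 ± 0.22 (3.17-fold, adjusted p = 0.0203). On A it read 346 and 488 at 2 d, against 1431 on the A array labelled Norm 1b (-1.80 ± 0.43, adjusted p = 0.0745). Of 23 tested clock genes, 15 stood below 0 and 8 above, with a median of -0.31, and Nr1d2 was the member with a probe set that passed (4.35% of the list lower, against 1.7% of all genes). Without sample Norm 1b the median was -0.01. Hlf, a clock-controlled transcription factor, stood at -1.05 ± 0.23 (adjusted p = 0.0531), the clock repressor Per1 at -1.69 ± 0.46 (adjusted p = 0.0982) and the repressor Cry1 at 0.84 ± 0.23 (adjusted p = 0.1). The labels give no time of day at which the lungs were taken.

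Klf9, a transcription factor induced by glucocorticoids, read 2300 and 1836 at 2 d, against 5395 on the A array labelled Norm 1b (-1.39 ± 0.21, adjusted p = 0.0231). Its B probe set read 3732 and 4539 at 2 d, against 5998 and 7075 in Norm (-0.66 ± 0.18, adjusted p = 0.089), and the groups did not overlap. Socs3, an inhibitor of cytokine signalling, was an agreeing gene that rose, with 1172 and 1053 at 2 d, against 503 on the A array labelled Norm 1b (1.14 ± 0.23, adjusted p = 0.0494). On B it read 974 and 632 at 2 d, against 501 and 295 in Norm (1.02 ± 0.30, adjusted p = 0.111). Its other A probe set stood at 0.58, near the minimum of 0.5. Of 23 glucocorticoid-response genes, 12 stood above 0 and 11 below. Cebpd, a transcription factor, rose by 1.01 ± 0.20 (adjusted p = 0.0458), while Klf9 and Errfi1, an inhibitor of epidermal growth factor receptors, had probe sets that fell (8.7% of the list, against 1.7% of all genes).

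In signalling between endothelium and smooth muscle, the soluble guanylate cyclase that nitric oxide activates stood lower. Gucy1b1, its beta subunit, read 496 and 703 at 2 d, against 1465 on the A array labelled Norm 1b (-1.31 ± 0.26, adjusted p = 0.049). On B it read 3785 and 3612 at 2 d, against 6945 and 3939 in Norm (-0.50 ± 0.24, adjusted p = 0.303), so the fall rests on the A array. Gucy1a1, its alpha subunit, read 809 and 1430 at 2 d, against 3846 and 2020 in Norm, with no overlap (-1.37 ± 0.32, adjusted p = 0.0648). Nos1, the neuronal nitric oxide synthase, rose on its tested probe set to 1625 and 1040 at 2 d, against 357 and 578 in Norm (1.52 ± 0.31, adjusted p = 0.0459). Of 23 tested vasoactive genes, 11 stood above 0 and 10 below. Edn1, the precursor of the constrictor endothelin, read 1878 and 1987 at 2 d, against 710 on the A array labelled Norm 1b, on 1 probe set (1.44 ± 0.39, adjusted p = 0.0943), and 582 and 585 against 678 on the other (-0.22 ± 0.24). Ace, the angiotensin-converting enzyme, stood at 0.77 ± 0.18 (adjusted p = 0.0713) and 0.51 ± 0.27.

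Of 35 genes of signalling by bone morphogenetic proteins and transforming growth factor beta, 24 stood below 0 and 11 above, with a median of -0.23. On B and C alone the median was -0.03, with 9 of 18 genes on each side of 0. Tgfbr3, the coreceptor betaglycan, fell on 2 of 4 probe sets. On C it read 54.4 and 383 at 2 d, against 1141 and 1409 in Norm (-2.19 ± 0.37, adjusted p = 0.0269). On B, 1 probe set read 1488 and 1364 at 2 d, against 3474 and 3200 in Norm (-1.23 ± 0.19, adjusted p = 0.0235), and its remaining probe sets stood at -0.34 and -0.22. Bmpr1a, a type I receptor, read 1197 and 1577 at 2 d, against 3088 and 2459 in Norm, on the probe set that fell (2.01-fold lower, adjusted p = 0.0279). Its 4 other probe sets were also below 0, between -1.05 and -0.20. Bmpr2, the type II receptor that is mutated in heritable pulmonary hypertension, had 5 probe sets between -0.30 and 0.09, none of which passed. Bmp6, a ligand, stood at -1.73 ± 0.37 (adjusted p = 0.0562) and -1.21 ± 0.32 (adjusted p = 0.0901).

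Among genes of the hypoxia response, 1 target had a probe set that rose and 2 regulators had one that fell. Of 40 tested targets of hypoxia-inducible factors and enzymes of glycolysis, 24 stood above 0 and 13 below, with a median of 0.12, and 10 of 20 stood above 0 on B and C alone. Pkm, pyruvate kinase, was the member with a probe set that rose (2.5%, against 1.03% of all genes), at 6298 and 4025 at 2 d, against 2041 on the A array labelled Norm 1b (1.30 ± 0.25, adjusted p = 0.044), while its other probe sets stood at 0.29 and -0.24. Vegfa, the endothelial growth factor, read 1387 and 1137 at 2 d, against 2289 on the A array labelled Norm 1b. On B it read 1745 and 2513 at 2 d, against 2016 and 1610 in Norm, and on C 600 and 319 at 2 d, against 2176 and 1113 in Norm (-1.83 ± 0.54, adjusted p = 0.107). Its 3 probe sets did not agree. Ddit4, a stress-induced inhibitor of growth signalling, stood at 1.55 ± 0.36 (adjusted p = 0.069). Of 15 tested regulators of these factors, 9 stood above 0 and 6 below, and Epas1 and Cited2 had a probe set that fell (13.3%, against 1.7% of all genes). Epas1, which encodes the oxygen-regulated subunit HIF-2 alpha, had an A probe set that fell to 363 and 354 at 2 d, against 1833 on the A array labelled Norm 1b (-2.36 ± 0.36, adjusted p = 0.0247). Its B probe set read 40749 and 37991 at 2 d, against 20553 and 31318 in Norm (0.63 ± 0.42, adjusted p = 0.454), which is the opposite direction. Cited2, a competitor of these factors for their coactivator, fell by 1.72 ± 0.27 on its tested probe set (adjusted p = 0.0249). Hmox1, heme oxygenase, stood at 0.07 ± 0.19, and Retnla, a resistin-like protein of the hypoxic lung, read 2344 and 3219 at 2 d, against 2301 and 1236 in Norm (0.70 ± 0.33, adjusted p = 0.299).

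Other genes known from pulmonary hypertension also did not pass. Acta2, the actin of smooth muscle, read 11138 and 11493 at 2 d, against 5726 on the A array labelled Norm 1b (0.98 ± 0.26, adjusted p = 0.091), and on C 410 and 209 at 2 d, against 704 and 565 in Norm (-1.11 ± 0.45). Timp1, an inhibitor of matrix metalloproteinases, stood at 1.10 ± 0.27 (adjusted p = 0.0801). Tnc, the matrix protein tenascin, stood at 1.28 ± 0.56 (adjusted p = 0.267) and 0.22 ± 0.16, and the endothelin receptor gene Ednrb at -0.28 ± 0.29 and 0.00 ± 0.18. Nos3, the endothelial nitric oxide synthase, was at the floor in both groups. Kdr, the main receptor of Vegfa on endothelium, read 3507 and 3382 at 2 d, against 3161 on the A array labelled Norm 1b.

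**Figure D3:**
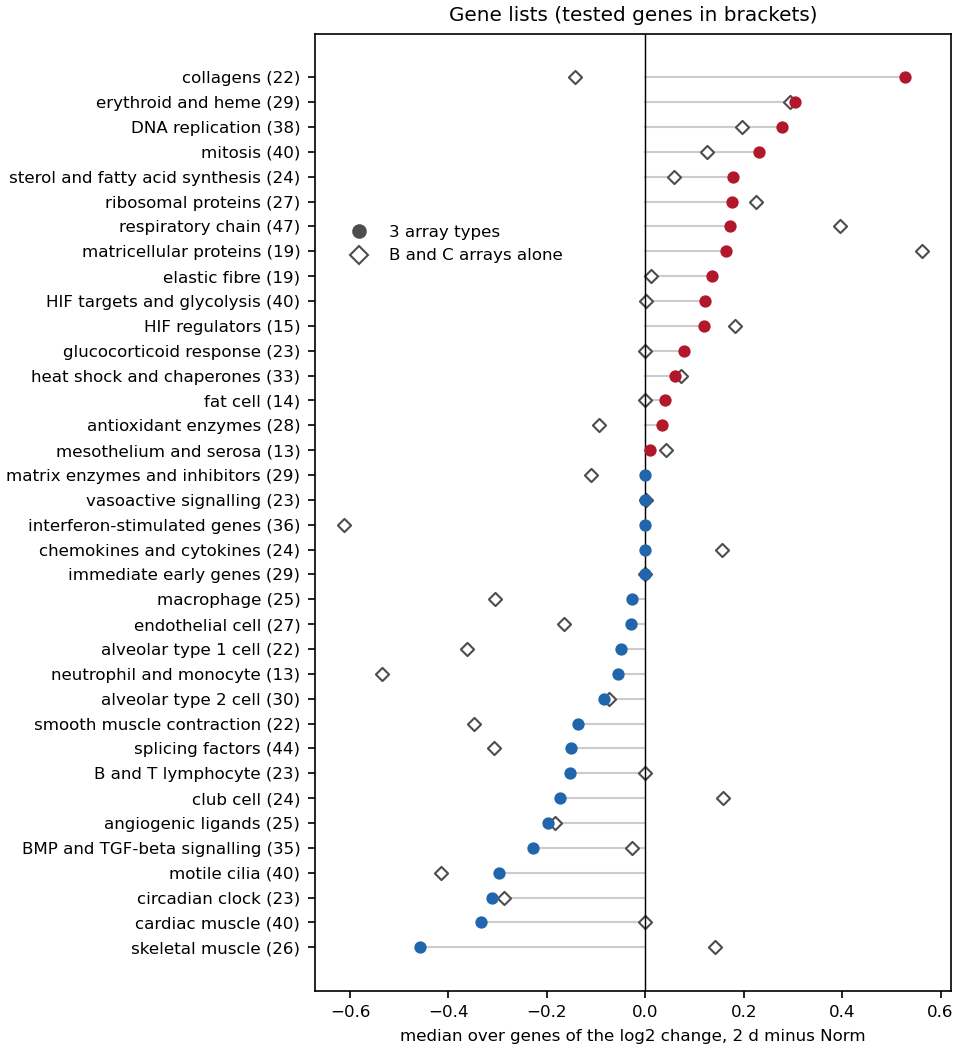
Median over the genes of a list of the log2 change, 2 d minus Norm, for the lists with at least 13 tested genes (circles), and the same on the B and C arrays alone (diamonds). Collagens stand highest at 0.53 and skeletal muscle lowest at -0.46 with all arrays, and both medians change sign on B and C alone, while motile cilia stay below 0.

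Muscle genes stood lower on the A arrays. Acta1, skeletal muscle actin, read 801 and 1060 at 2 d, against 6076 on the A array labelled Norm 1b (-2.72 ± 0.44, adjusted p = 0.0298). Car3, the carbonic anhydrase abundant in muscle, read 339 and 262 at 2 d, against 1624 on the A array labelled Norm 1b (-2.45 ± 0.27, adjusted p = 0.0167). Of 26 skeletal muscle genes, 18 stood below 0 and 8 above, with a median of -0.46, and 3 had a probe set that fell (11.5%, against 1.7% of all genes). Casq1, a calcium store protein, was the list's only gene that rose (3.85%, against 1.03% of all genes), on C to 8076 and 8095 at 2 d, against 4273 and 3380 in Norm (1.09 ± 0.16, adjusted p = 0.0203). Of 40 heart muscle genes, 28 stood below 0 and 11 above, with a median of -0.33, and 5 had a probe set that fell (12.5%, against 1.7% of all genes) while Myoz2 had one that rose (2.5%, against 1.03%). Actc1, cardiac actin, fell by 1.57 ± 0.23 on 1 A probe set (adjusted p = 0.0235) and stood at -0.37 on the other. Myl7, the atrial light chain, fell by 1.33 ± 0.21 on A (adjusted p = 0.0263) and stood at 0.39 on B. On B and C alone, the skeletal muscle median was 0.14 over 8 genes and the heart muscle median 0.00 over 15 genes. The summed intensity of 26 skeletal muscle probe sets on A was 12798 and 14826 at 2 d and 25804 on the A array labelled Norm 1b, and it was 11459 to 22177 on the A arrays of the other times. For 34 heart muscle probe sets on A it was 36409 and 35204 at 2 d and 52622 on the A array labelled Norm 1b.

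Among epithelial genes, Lyz1, which encodes a lysozyme made by alveolar type 2 cells in mice, read 2489 and 1140 at 2 d, against 10890 and 6661 in Norm, on a probe set whose name marks probes shared with related transcripts (-2.34 ± 0.36, adjusted p = 0.0212). Etv5, a transcription factor of type 2 cells, fell to 1442 and 1495 at 2 d, against 3826 and 2598 in Norm (-1.10 ± 0.20, adjusted p = 0.0321). Sftpc stood at 2.46 ± 0.66 (adjusted p = 0.0931). Sftpa1, surfactant protein A, read 2255 and 2700 at 2 d, against 3815 and 3454 in Norm, on B (-0.56 ± 0.16, adjusted p = 0.0988), and 61781 and 59105 at 2 d, against 56450 and 64759 in Norm, on the brighter C probe set. Of 30 type 2 cell genes, 21 stood below 0 and 9 above, with a median of -0.08. Cyp2f2, a cytochrome of club cells, fell by 2.03 ± 0.33 on A (adjusted p = 0.0298), with 3212 and 3418 at 2 d, against 13539 on the A array labelled Norm 1b. Agreeing genes of membranes also fell. Cpm, carboxypeptidase M, read 1064 and 836 at 2 d, against 3696 and 2297 in Norm (-1.63 ± 0.21, adjusted p = 0.0203), and 1356 and 1524 at 2 d, against 4669 and 1827 in Norm, on its other probe set (-1.02 ± 0.39, adjusted p = 0.193). Clic6, a chloride channel family protein, read 1671 and 1247 at 2 d, against 2849 and 4442 in Norm, on B (-1.30 ± 0.22, adjusted p = 0.0298), and 302 and 699 at 2 d, against 1548 and 1465 in Norm, on C (-1.71 ± 0.39, adjusted p = 0.0598). For Cpm and Clic6, every 2 d array lay below every Norm array on both probe sets, which says little alone with 2 arrays in a group.

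The other agreeing genes had mixed roles. Bend6, a BEN domain protein, read 988 and 1037 at 2 d, against 320 and 221 in Norm (1.93 ± 0.39, adjusted p = 0.0456), and 1140 and 1300 at 2 d, against 620 and 583 in Norm, on its other probe set (1.02 ± 0.29, adjusted p = 0.0987). Lockd, a long noncoding RNA, read 1751 and 2136 at 2 d, against 606 and 662 in Norm, on the probe set that rose (1.61 ± 0.24, adjusted p = 0.0212). Its other probe sets stood at 0.51 and 1.14. Actb, beta-actin, rose by 1.88 ± 0.26 on 1 A probe set (adjusted p = 0.0209) and stood at 1.09 ± 0.72 on the other, beside the raised control ratio for the same transcript given above. Ntm, a cell adhesion molecule, rose by 0.87 ± 0.11 or more with Norm at the floor (adjusted p = 0.0203). The name of the probe set marks probes shared with related transcripts. On this probe set the arrays of all groups but 2 d were at the floor, so the standard error does not measure their spread. Agreement of Ntm was lost with the floor at the 20th percentile and with only the 2 d and Norm arrays. The gene 5530601H04Rik rose by 1.06 ± 0.21 on B (adjusted p = 0.0456).

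Ddx3x, an RNA helicase, read 1128 and 1162 at 2 d, against 3313 on the A array labelled Norm 1b (-1.53 ± 0.16, adjusted p = 0.0142). Fnip1, a partner of folliculin, read 538 and 807 at 2 d, against 1660 and 1835 in Norm, on the probe set that fell (-1.41 ± 0.21, adjusted p = 0.0209), and its other probe sets stood at -0.61 and -1.32. Fam91a1 read 564 and 768 at 2 d, against 3332 and 1708 in Norm, on B (-1.86 ± 0.28, adjusted p = 0.0212). Camta1, a calmodulin-binding transcription activator, fell on C by 2.27 ± 0.45 (adjusted p = 0.044) and stood at -0.71 on B. Mir124a-1hg, the host transcript of a microRNA, fell by 2.23 ± 0.45 (adjusted p = 0.0442), and Gm8995 by 2.22 ± 0.46 (adjusted p = 0.0488). The remaining 6 agreeing genes, named after their values were seen so that each is accounted for, had median changes between -1.15 and -0.83. They were Rab43 and Cyth3, which act in membrane traffic, Gnai3, an inhibitory G protein subunit, Ctsc, a lysosomal protease, Pag1, an adaptor of immune receptors, and Ighv14-2, an immunoglobulin segment.

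Of 7882 genes with 1 tested probe set, 46 rose and 53 fell, and here no agreement could be checked. The largest increases were those of Snrp1c-ps2 (2.49 ± 0.42), Jund (2.08 ± 0.30), Gm1070 (2.06 ± 0.28), Teddm3 (1.76 ± 0.37) and Mthfd2 (1.68 ± 0.31). Jund, a subunit of the AP-1 transcription factor, read 27084 and 28750 at 2 d, against 6612 on the A array labelled Norm 1b (adjusted p = 0.0228). Mthfd2, a mitochondrial enzyme of folate metabolism, read 2845 and 2468 at 2 d, against 827 on that array (adjusted p = 0.042). Snrp1c-ps2 is named as a pseudogene, and its probe set is of the kind shared between related transcripts, so its source is uncertain. The largest decreases were those of Acta1, Car3, Lyz1, Cfap43 and Erich2, the last at 211 and 77.1 at 2 d, against 1097 and 864 in Norm (-2.24 ± 0.45, adjusted p = 0.044).

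In several genes the probe sets contradicted each other. Timp2, an inhibitor of matrix metalloproteinases, was the gene with probe sets that passed in opposite directions. On A it read 453 and 426 at 2 d, against 2271 on the A array labelled Norm 1b (-2.37 ± 0.19, adjusted p = 0.00518). On C it read 6989 and 7634 at 2 d, against 4658 and 3736 in Norm (0.81 ± 0.15, adjusted p = 0.0397). Of 44 splicing factor genes, 5 had a probe set that fell (11.4%, against 1.7% of all genes), and none of the 5 agreed. On B and C alone, 5 of 22 stood above 0 and 15 below (median -0.31), against 17 above and 26 below with all arrays. Srrm2, a protein of the active spliceosome, read 2039 and 1950 at 2 d, against 10312 and 12652 in Norm, on 1 B probe set (-2.52 ± 0.21, adjusted p = 0.00432), while its 3 other tested probe sets stood between 0.04 and 0.23. Mbnl2, a regulator of alternative splicing, read 1182 and 1284 at 2 d, against 6566 and 4854 in Norm (-2.20 ± 0.16, adjusted p = 0.00432). Another Mbnl2 probe set fell by 2.12 (adjusted p = 0.0382), and the other 5 stood between -1.07 and -0.10. Srsf11 fell on 2 B probe sets, by 1.37 ± 0.19 and 1.21 ± 0.18, and stood at -0.03 on A, and Sf3b1 fell by 1.83 ± 0.27 on 1 A probe set and stood at 0.26 on another. When at least 2 probe sets of a gene had to pass in the same direction, 11 genes qualified, and all 11 were lower.

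Several lists leaned to one side without a call. Of 38 tested DNA replication genes, 32 stood above 0 and 4 below (median 0.28), and of 40 mitosis genes 31 stood above and 7 below (median 0.23, and -0.08 over 14 genes without sample Norm 1b). Of 29 erythroid and heme genes, 24 stood above 0 and 5 below (median 0.30, and 0.29 on B and C alone). None of these genes had a probe set that passed. The adult globin gene Hba-a1, named after its values were seen, read 29409 and 42018 at 2 d, against 13306 on the A array labelled Norm 1b. Of 47 respiratory chain genes, 32 stood above 0, and of 36 interferon-stimulated genes 17 stood on each side. On B and C alone, 8 of 15 respiratory chain genes stood above 0, and the interferon list had a median of -0.61 with 8 of 17 genes above 0 and 9 below. Without sample Norm 1b the interferon median was -0.23. The summed intensity of its C probe sets was 15752 and 12156.5 at 2 d, against 12492 in Norm 1a and 30639 in Norm 1b. On B it was 15319 and 14845 at 2 d, against 20259 in Norm 1a and 32607 in Norm 1b. Over all 13029 genes, 6516 stood above 0 and 6251 below.

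The 2 d lungs were also compared with the other lungs in low oxygen, in the fit to all 29 arrays, in which the Norm arrays enter the shared spread. Against the mean of 10 h, 4 d and 6 d, 1460 of 25801 probe sets passed (5.66%), 705 of them higher at 2 d and 755 lower, and 1871 passed in a fit to the arrays in low oxygen alone. This comparison shares its 2 d arrays with the comparison against Norm, so their calls are not independent. Against 6 d alone, 16 passed (0.062%), 8 in each direction, with 3360 at an unadjusted p under 0.05. The 2 d and 6 d arrays were deposited next to each other, and whether those of Norm, 10 h and 4 d were run separately is not stated. Such a batch and the treatment cannot be told apart.

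The agreeing genes differed in how they stood at the other times. Nr1d2 read 6449 to 11611 on the 6 B arrays of the other times, above both 2 d arrays (2458 and 2954), a difference of -1.70 ± 0.18 (adjusted p = 0.0043). Cpm read 3143 to 5231 at the other times, against 1064 and 836 at 2 d, and the difference from 6 d was -1.77 ± 0.21 (adjusted p = 0.0357). Ogn read 1535 to 4251 on the A arrays of the other times, against 405 and 607 at 2 d (-2.45 ± 0.23, adjusted p = 0.00363). Lyve1 read 1241 to 3832 on B at the other times, against 628 and 738 at 2 d (-1.76 ± 0.16, adjusted p = 0.00238), while on A the other times read 701 to 1713 and overlapped with 776 and 798 at 2 d.

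Of the cilia genes, Spag6l read 1493 and 1037 at 10 h, 699 and 849 at 4 d and 410 and 217 at 6 d, and the difference of 2 d from 6 d did not pass (-0.57 ± 0.42, adjusted p = 0.646). Cdhr4 on C read 2652 and 2315 at 10 h, 1856 and 1439 at 4 d and 1060 and 1325 at 6 d, against 1503 and 1202 at 2 d. The brighter Eln probe set read 6535 and 7079 at 10 h, 12250 and 7066 at 4 d and 21340 and 13907 at 6 d, below both 2 d arrays, and stood 1.53 ± 0.26 higher at 2 d than the mean of the other times (adjusted p = 0.0198). The dimmer one read 2669 and 2534 at 6 d, above 1235 and 1398 at 2 d. Acta1 read 80.1 and 26.8 at 10 h, 1700 and 3941 at 4 d and 915 and 1160 at 6 d. Its 2 d level did not pass against the mean of the other times (0.10 ± 0.30, adjusted p = 0.867).

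**Figure D4:**
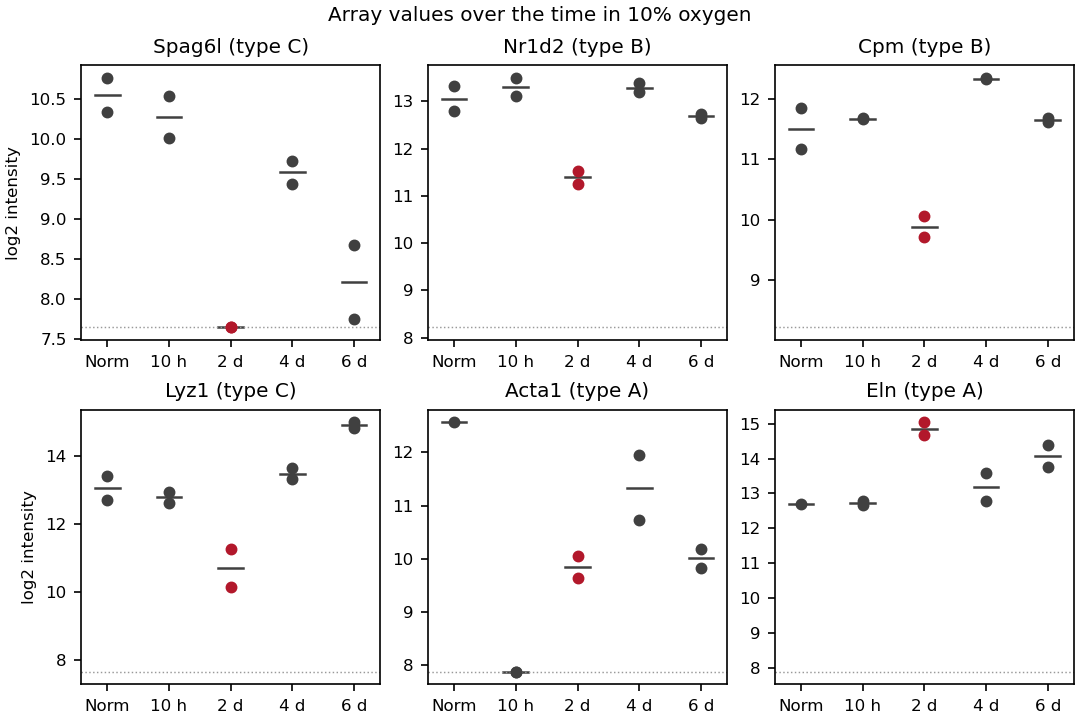
Log2 intensity of each array in Norm and after 10 h, 2 d, 4 d and 6 d in 10% oxygen for the probe set with the smallest adjusted p of Spag6l, Nr1d2, Cpm, Lyz1, Acta1 and Eln. Red points are 2 d, bars are group means and the dotted line is the floor; Nr1d2, Cpm and Lyz1 are lowest at 2 d, and Spag6l is at the floor at 2 d and low at 6 d.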

How the data were processed

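Total RNA of whole lung was measured on 3 types of Affymetrix array, and arrays were grouped by their titles. Each deposited value is the linear intensity of a probe set; the software that made them, their background correction and the genome build were not given in the sources used here, and trimmed means showed a common scale, so no further normalization was applied. From these intensities, values under the floor were raised to it, log2 was taken, and a probe set was tested if 2 or more arrays of its type exceeded the floor, control probe sets left out. limma 3.58.1 in R 4.3.3 (lmFit, then eBayes with a trend on the mean level) fitted the 5 group means to all 29 arrays used, so the groups shared 1 estimate of the spread, and the only Norm array of type A was assumed to vary like the others. P-values are two-sided and adjusted by Benjamini-Hochberg over the 25801 probe sets of the 3 types together. The number of arrays limits the precision.

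Symbols came from the platform annotation, which can be old. A single symbol was held by 10833 probe sets of A, 10581 of B and 7717 of C, several by 396, 178 and 150, and none by 1193, 1652 and 4001. Probe sets with several symbols named no gene, and 113 of the probe sets that passed had no single symbol. The level of a gene in a list is the median change over its tested probe sets, and changes at the floor count as measured there. Members, lists and rules were chosen with earlier results of these data known. Lists are described by their counts and medians and were not tested. The text names the 15 highest and 15 lowest agreeing genes, up to 5 genes with a lone probe set in each direction, the agreeing members and up to 4 others of smallest p of each list spoken of, genes known from pulmonary hypertension and genes whose probe sets passed in opposite directions; names outside this rule are marked. Promoter sequences are from RefSeq. The fit and the agreement rule were run on simulated data in which all probe sets of a changed gene moved by the same amount. The simulation held no difference in RNA integrity, so it cannot test the rule under the raised control ratios. Alternatives covered scaling, filters, floor, trend, adjustment, a replicate block, array subsets, the agreement rule and leaving out each sample. The main fit did not pair the samples by the letters 1a and 1b. Differences between 1b and 1a correlated little between groups (-0.158 to 0.134), which does not settle whether the letters pair the samples.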

Additional observations from a re-analysis of the deposited data

Results flagged for a closer look

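For 7 of the genes named above, a probe set differed between 2 d and 6 d by the test of that difference itself, so that their change against Norm was not the same at both times. Changes are log2 differences, 2 d minus 6 d. The largest was that of Lyz1 on C (-4.21 ± 0.36, adjusted p = 0.0147), with 2489 and 1140 at 2 d and 33033 and 29448 at 6 d, and 10890 and 6661 in Norm lying between them. Etv5 on B was lower at 2 d (-1.85 ± 0.20, adjusted p = 0.0254), with 1442 and 1495 at 2 d and 4821 and 5795 at 6 d, and so was Sftpa1 on B (-1.46 ± 0.16, adjusted p = 0.0254), with 2255 and 2700 at 2 d and 7447 and 6179 at 6 d. The C probe sets of Sftpa1 stood at -0.50 and -0.39 against 6 d and did not pass. Sftpc on A did not pass, with 36691 and 42808 at 2 d and 21894 and 10008 at 6 d (1.42 ± 0.54, adjusted p = 0.306). Mbnl2 on B (-1.86 ± 0.16, adjusted p = 0.0147), Cpm on B (-1.77 ± 0.21, adjusted p = 0.0357) and Timp2 on A (-1.63 ± 0.15, adjusted p = 0.0254) were lower at 2 d. Ntm on B was higher by 0.87 ± 0.11 or more (adjusted p = 0.0405), with 6 d at the floor, so its standard error does not measure the spread of the 6 d arrays. The Gapdh and beta-actin control ratios were highest on the 2 d arrays, and those of the 6 d arrays lay below them. On A and C both ratios were still higher at 6 d than on every Norm array used of that type. On C, for beta-actin, they were 1.13 and 1.36 at 6 d and 0.104 and 0.926 in Norm. On B the 6 d and Norm arrays overlapped, for Gapdh with 1.58 and 1.44 at 6 d and 0.926 and 1.51 in Norm. The part of RNA integrity in these differences between 2 d and 6 d was not tested.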

How the results depend on the processing

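Of the recomputed counts, 39 stayed within 1.5 times the count given above and 45 did not. For 2 d minus Norm (480 probe sets), fits without the trend gave 319, the replicate block 217, adjustment within an array type 733 and the arrays of both groups alone 249. Leaving out 1 sample gave 23 (without 2 d 1b) to 439. For agreeing genes (31), no filter gave 10, the block 17, no minimum change 138, a minimum of 1 gave 15, at least 2 passing probe sets 11, and leaving out 1 sample 3 to 44. Of the 31 genes, 29 agreed under quantile normalization, 22 under median scaling, 24 without the trend and 17 under the block. With the stricter filter 27 agreed, with the floor at the 20th percentile 18, and without the filter 9. With only the 2 d and Norm arrays 11 agreed. When probe sets with an extra letter in their names were left out, 18 agreed. For 2 d minus the mean of 10 h, 4 d and 6 d (1460), no filter gave 692 and leaving out 1 sample 182 to 1826. For 2 d minus 6 d (16), no filter gave 100, the floor at the 20th percentile 7, no trend 0 (limma, with 3372 at an unadjusted p under 0.05), the block 2, adjustment within an array type 91, the arrays of both groups alone 4, and leaving out 1 sample 0 to 33 (1997 to 3709 unadjusted). Among recomputed changes of the agreeing and the named lone-probe-set genes, 419 kept their call, 348 lost it and none reversed; other named genes were not recomputed. The medians of several lists changed sign under an alternative. Among them were collagens (-0.14), skeletal muscle (0.14) and club cell genes (0.16, from -0.17) on B and C alone. Without Norm 1b the sign changed for mitosis (-0.08), skeletal muscle (0.08), BMP and TGF-beta signalling (0.01) and the glucocorticoid response (-0.09, from 0.08), among others. Without 2 d 1b it changed for the HIF regulators (-0.07, from 0.12). The main fit did not pair the samples by their letters, and why the block lost calls was not tested. Without Norm 1b no A probe set could be compared with Norm. With 2 samples a group, and 1 Norm array on A, a missed threshold says little about a gene. Dim probe sets at the floor have no order.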
